A study of Mus musculus with 8 samples.

Results

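The genes described here are 10 macrophage markers, chosen by symbol from the 16133 genes of the authors' deposited comparison, and all 10 were found. Kupffer cells are the macrophages that reside in the liver sinusoids. They take up bacteria, worn red cells, apoptotic cells and lipoproteins from the blood through scavenger and lectin receptors, and they depend on CSF1 receptor signalling. During liver injury resident cells can be lost and monocyte-derived macrophages can take their place, and in fatty or scarred liver some macrophages carry a lipid-handling and lysosomal programme in which TREM2, GPNMB, CD9 and CD63 are prominent. Of the 10 markers, 5 were grouped as resident or lineage markers (Clec4f, Timd4, Marco, Adgre1 and Csf1r) and 5 as injury-associated ones (Cd68, Gpnmb, Cd14, Trem2 and Lyz2).

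Liver RNA came from mice labelled METTL14f/f (floxed, called WT) and METTL14Alb (called KO), which lack the m6A methyltransferase subunit METTL14 in the liver. Alb in such names usually stands for the albumin promoter, which is active in hepatocytes and not in macrophages, but the labels do not spell out the driver. Every mouse of both groups had received tunicamycin, a blocker of N-linked glycosylation that causes stress of the endoplasmic reticulum, by intraperitoneal injection at 2 mg/kg for 24 hours, and no untreated group was analysed here. Polyadenylated RNA of each genotype was sequenced as input, before precipitation with an m6A antibody, and as IP, after it, in 2 libraries each. The sources used here give no age, sex or number of mice. Whether libraries of a group are separate mice is not labelled, so the p-values below cover library spread only, which may be technical.

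The 4 input libraries held an estimated 12316899 to 16814204 reads. Their counts were recovered from the deposited means, and with replicate numbers unknown they are called A and B within each genotype (KO A to WT B); paired values below stand in the order A, B. For each of the 10 markers exactly 1 set of 4 whole counts gave the deposited mean. The deposited comparison does not name its numerator. It was read as KO over WT because, among 344 genes of mean count at least 100 with a deposited log2 value above 2 (markers left out), 154 had m6A peaks listed for KO only and 0 for WT only, while among 403 genes below -2 these counts were 30 and 46. Of all genes with that mean count 32.5% had peaks listed for KO only and 2.76% for WT only. Every direction below rests on reading the comparison as KO over WT. Normalized counts are reads divided by the authors' size factor of the library. They are not divided by transcript length, so levels of different genes are not compared. Mettl14 itself, the deleted gene, stood at 64.6 and 62 normalized counts in the KO libraries and 79.8 and 99.7 in WT and did not pass the test (log2 -0.50 in the authors' deposited table, adjusted p = 0.342); its value was 0.32 with libraries scaled to equal total reads, and which exons its reads cover is not given, so this gene gives no firm check of the labels. Tissue was bulk liver, in which fewer cells of a type and less RNA per cell cannot be told apart.

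In KO liver 3 injury-associated markers, Cd68, Gpnmb and Cd14, were much higher, the Kupffer cell lectin Clec4f was lower, and the other 6 markers did not pass the test. Of 10 markers 4 had an adjusted p under 0.05 in the authors' deposited table (DESeq2), beside 42.5% of all 14257 tested genes. Of the injury-associated markers 3 of 5 were called higher, beside 20.4% of all genes, and of the resident markers 1 of 5 was called lower, beside 22.2%. With libraries scaled to equal total reads limma called 6 higher and 0 lower, where 58.7% of all genes were higher and 7.56% lower. The median log2 change was 2.44 over the injury-associated and -0.22 over the resident markers, against 0.046 over all tested genes in the authors' deposited table. Libraries of the genotypes did not overlap for 6 of 10 markers, beside 78.9% of recovered genes averaging 10 or more.

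**Figure D1:**
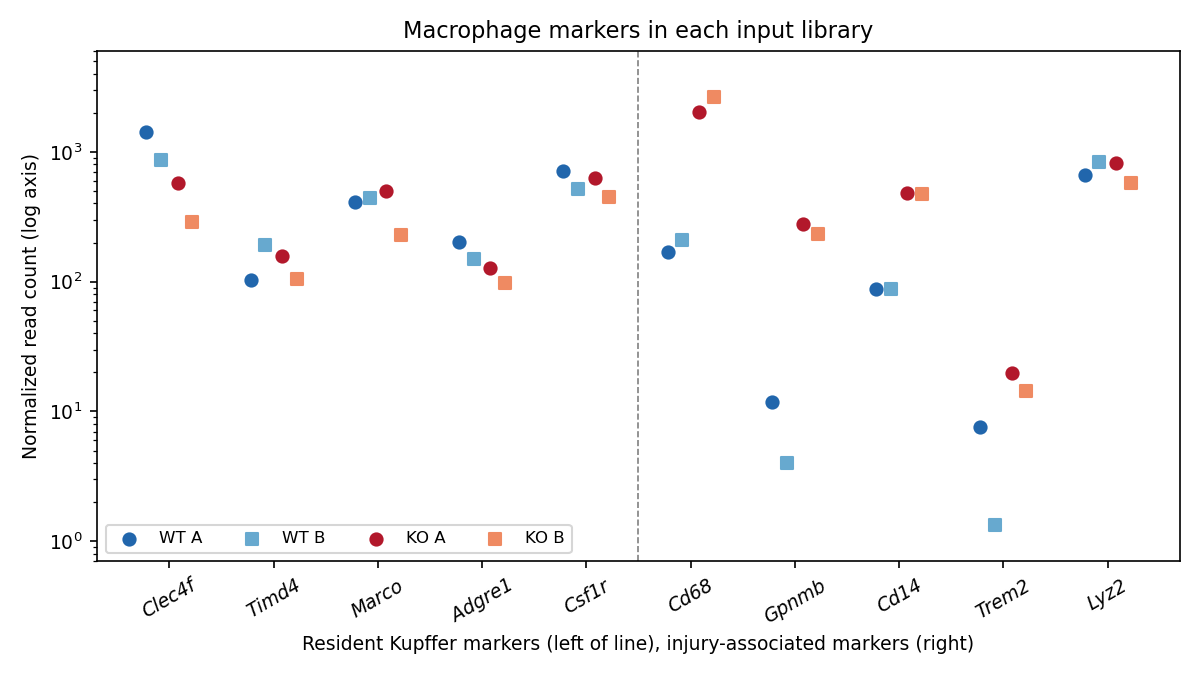
Normalized read count (log axis) of each marker in the 4 input libraries, with WT in blue and KO in red shades, circles for library A and squares for library B. Cd68, Gpnmb and Cd14 stood far higher in both KO libraries, from 232 to 2665 against 4.04 to 207 in WT, while Clec4f was lower in both and Timd4, Marco, Csf1r and Lyz2 overlapped.

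Among the resident markers Clec4f alone passed the test. Clec4f encodes a C-type lectin that binds galactose-containing glycans and that in mice is made almost only by Kupffer cells (chr6:83644542-83656116). Its normalized counts were 579 and 287 in KO against 1408 and 861 in WT. Both KO libraries lay below both WT libraries, but the libraries of a genotype differed as well, KO A being 2.01-fold above KO B and WT A 1.64-fold above WT B. Clec4f changed by -1.39 ± 0.31 (log2, SE, adjusted p = 4.70e-05 from DESeq2) in the authors' deposited table, a 2.62-fold lower level in KO. With total-count scaling limma gave Clec4f -0.61 (adjusted p = 0.165), which did not pass the test, where the median of all genes was 0.87. It gave -1.93 without KO A and -0.93 without KO B (adjusted p = 0.0945 and 0.211), in fits that called 0 of 14074 genes, and over all alternatives the adjusted p ran from 0.00103 to 0.211.

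Timd4 and Marco encode uptake receptors of resident macrophages. TIM-4 binds phosphatidylserine on apoptotic cells, and MARCO is a class A scavenger receptor for bacteria and particles. Normalized counts of Timd4 (chr11:46810786-46844333) were 157 and 105 in KO and 104 and 190 in WT, and both KO libraries lay between the WT ones. For Timd4 the authors' deposited table gave a log2 change of -0.16 ± 0.38 (adjusted p = 0.778), with a 95% interval from -0.91 to 0.59. Marco (chr1:120474538-120505024) stood at 496 and 229 normalized counts in KO, with 408 and 439 in WT, so that the KO libraries lay on either side of the WT pair. For Marco the authors' deposited table gave -0.22 ± 0.32 (adjusted p = 0.621), with an interval from -0.85 to 0.41. For both genes the interval of the difference covers a rise as well as a fall.

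Adgre1 and Csf1r mark the macrophage lineage more widely. Adgre1 encodes F4/80, an adhesion G protein-coupled receptor, and Csf1r the receptor for CSF1 and IL-34 on which macrophage survival depends. Normalized counts of Adgre1 (chr17:57358581-57483529) were 128 and 97.7 in KO, both below the 202 and 149 of WT. The authors' deposited table gave Adgre1 a log2 change of -0.64 ± 0.34 (adjusted p = 0.118), which did not pass the test, and limma called it lower without WT B (-0.84, adjusted p = 0.0179, against 0.0632 to 0.528 in the other alternatives). Csf1r (chr18:61105572-61131139) had normalized counts of 625 and 451 in KO and 717 and 513 in WT. Its value in the authors' deposited table was -0.19 ± 0.26 (adjusted p = 0.582, interval from -0.70 to 0.31), and the genotypes overlapped. Csf1r shares 8247 bases with a long noncoding RNA gene, Gm52352, and how reads in shared bases were counted is not stated. All 4 resident markers that were not called turned positive with total-count scaling, from 0.19 for Adgre1 to 0.69 for Timd4, and the 0.63 of Csf1r then passed the test (limma, adjusted p = 0.0396). Those values lay below the median of 0.87 over all genes at that scaling. All 5 resident markers were lower in KO B than in KO A, beside 46.1% of all genes averaging 10 or more.

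**Figure D2:**
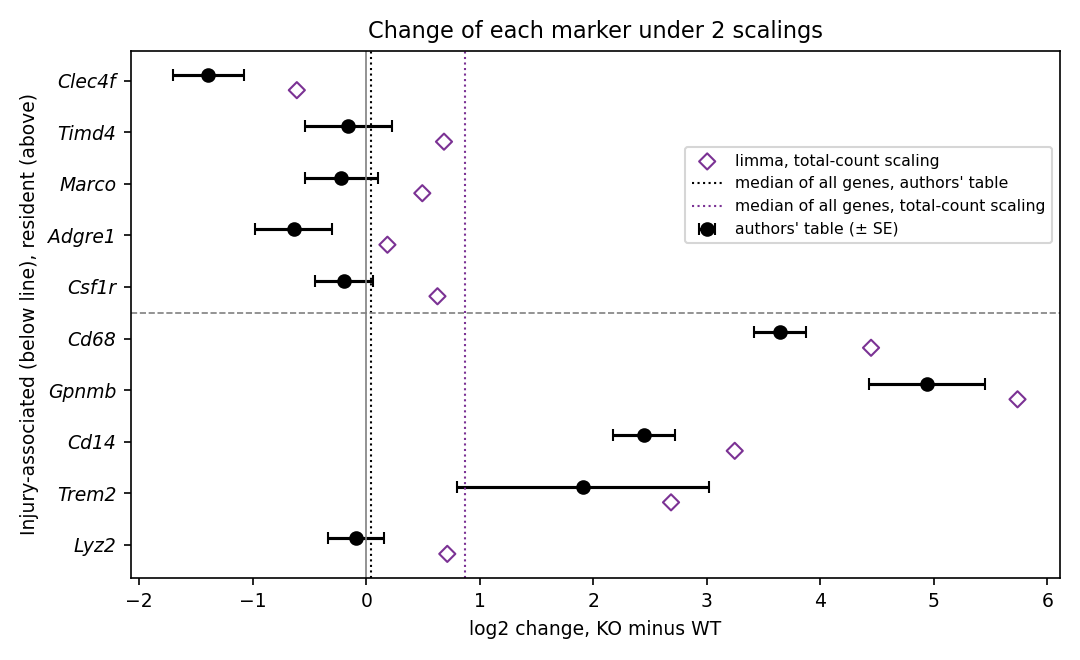
Log2 change of each marker, KO minus WT, from the authors' table (black points with SE) and from limma with libraries scaled to equal total reads (open diamonds), with the median of all genes under each scaling as dotted lines. Cd68, Gpnmb and Cd14 lay far to the right under both scalings, whereas Timd4, Marco, Adgre1, Csf1r and Lyz2 changed sign between them.

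Among the injury-associated markers Gpnmb changed most. Gpnmb encodes a transmembrane glycoprotein of lysosomes and melanosomes that lipid-laden and scar-associated macrophages make in large amounts (chr6:49036518-49058182). Its normalized counts were 277 and 232 in KO against 11.9 and 4.04 in WT. The KO libraries agreed closely, whereas the WT libraries rested on 11 and 3 reads, with 95% exact Poisson intervals of 5.49 to 19.7 and 0.619 to 8.77 reads that cover counting error only. Gpnmb changed in the authors' deposited table by 4.94 ± 0.51 (adjusted p = 1.80e-20), a 30.8-fold higher level in KO.

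Cd68 and Cd14 rose with smaller standard errors than Gpnmb. Cd68 encodes macrosialin, a glycoprotein of endosomes and lysosomes that marks phagocytic activity in macrophages and is also found in other cells (chr11:69664213-69666170). Normalized counts of Cd68 were 2023 and 2665 in KO against 168 and 207 in WT. Its log2 change in the authors' deposited table was 3.65 ± 0.23 (adjusted p = 2.31e-54), or 12.5-fold, and the lowest KO library was far above the highest WT library. Within KO it ran against the other markers: KO B was 1.32-fold above KO A, while the other 9 markers were all lower in KO B. Cd14 encodes the co-receptor that hands lipopolysaccharide to TLR4, made by monocytes and macrophages and, in stressed liver, by hepatocytes too (chr18:36725064-36726815). Normalized counts of Cd14 were 481 and 477 in KO and 88.4 and 87.5 in WT, nearly equal within each genotype. The authors' deposited table gave Cd14 a log2 change of 2.44 ± 0.27 (adjusted p = 6.67e-18), a 5.44-fold higher level. Without KO A or KO B the limma values of Cd68, Gpnmb and Cd14 did not pass the threshold (adjusted p from 0.0611 to 0.0822), in the fits that called 0 genes, while the log2 values stood between 2.42 and 5.11.

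Trem2 and Lyz2 did not pass the test. TREM2 is a lipid and lipoprotein receptor that signals through the adaptor TYROBP and defines lipid-associated macrophages (chr17:48346401-48352276). Trem2 was scarce, with 25 and 17 reads in KO and 7 and 1 reads in WT. As normalized counts these were 19.9 and 14.4 against 7.55 and 1.35, and the genotypes did not overlap. The authors' deposited table gave Trem2 1.91 ± 1.11 (adjusted p = 0.160), with an interval from -0.27 to 4.09, so a rise as large as that of Cd68 and no rise at all were both within it. Limma called Trem2 higher with total-count scaling (2.69, adjusted p = 0.0122), with a pseudocount of 5 (1.30, adjusted p = 0.0390) and without WT A (2.94, adjusted p = 0.00501), and not without WT B (1.07, adjusted p = 0.155). Lyz2, which encodes lysozyme of macrophages, monocytes and neutrophils (chr10:117277541-117282272), had normalized counts of 825 and 577 in KO and 664 and 830 in WT, which overlapped. Its value in the authors' deposited table was -0.09 ± 0.24 (adjusted p = 0.804, interval from -0.57 to 0.39), and with total-count scaling it was 0.71 (limma, adjusted p = 0.0185). Lyz2 has a close copy, Lyz1, with which it can share reads, and the authors' deposited table gave Lyz1 -0.052 (adjusted p = 0.945).

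Promoter sequence was available from RefSeq (GRCm38.p6, the assembly of mm10) for 7 of the 10 markers, in windows from 250 bases before to 50 bases after a start. Both strands were searched for TGANTCA, a loose form of the core bound by AP-1. They were also searched for CACGTG and CATGTG, E-boxes bound among others by MITF and TFE factors, and GAGGAA, a core bound by PU.1. TGANTCA stood in the windows of 3 of the 4 injury-associated markers (Cd68, Gpnmb and Trem2) and in 0 of the 3 resident ones (Clec4f, Timd4 and Marco), beside 7.81% of all 32851 windows. The letters were TGAGTCA in Cd68, TGACTCA in Gpnmb and TGAATCA in Trem2. CACGTG was in 0 of the 7 windows (7.15% of all), CATGTG in Timd4 and Marco (14.2% of all) and GAGGAA in Marco, Cd68 and Trem2 (28.3% of all). A match is a run of letters and shows no binding. The sequences below carry that contrast, with TGANTCA in capitals. Cd68 (chr11:69666171-69666420, minus strand) holds it 149 and 24 bases before the start, and Gpnmb (chr6:49036518-49036547, plus strand, the first 30 bases of the transcript) from base 9 on. Clec4f (chr6:83656117-83656366, minus strand) is shown as the resident marker without it.
Cd68: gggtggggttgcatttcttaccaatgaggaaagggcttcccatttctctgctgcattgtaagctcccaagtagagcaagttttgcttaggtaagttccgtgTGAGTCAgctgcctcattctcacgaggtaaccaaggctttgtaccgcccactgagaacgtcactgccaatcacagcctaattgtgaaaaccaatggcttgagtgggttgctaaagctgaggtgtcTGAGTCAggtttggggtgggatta
Gpnmb: ggggcaagTGACTCAtgagcacgagttgtt
Clec4f: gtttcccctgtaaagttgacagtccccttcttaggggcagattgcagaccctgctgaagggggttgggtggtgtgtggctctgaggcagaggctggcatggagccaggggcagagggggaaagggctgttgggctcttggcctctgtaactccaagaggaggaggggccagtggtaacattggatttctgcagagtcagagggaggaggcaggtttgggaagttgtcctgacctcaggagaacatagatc

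Differences between genes of 1 library do not depend on how libraries are scaled, apart from the added pseudocount of 1, and they showed the contrast of both groups of markers directly. The mean log2 normalized count of the 5 injury-associated markers minus that of the 5 resident markers was 0.069 and 0.62 in KO, against -2.59 and -2.98 in WT. KO exceeded WT by 3.13 (pooled SD 0.34, n = 2 each), and by 2.86 to 3.40 when any 1 library was left out. The difference between Gpnmb and Clec4f, the far ends of the list, was -1.06 and -0.31 in KO and -6.78 and -7.42 in WT. Cd68 minus Adgre1 was 3.97 and 4.76 in KO and -0.26 and 0.47 in WT. Lyz2 contributed least: relative to the resident mean it differed between the genotypes by 0.44 against 5.52 for Gpnmb, 4.17 for Cd68, 2.97 for Cd14 and 2.55 for Trem2.

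Other genes that macrophages in general express gave a base for the same comparison. Of 24 such genes 1 was called higher and 1 lower, beside 20.4% and 22.2% of all tested genes. The authors' deposited table gave the 24 a median log2 change of 0.10. With total-count scaling limma called 15 of them higher and 1 lower, beside 58.7% and 7.56% of all genes. The 24 then had a median of 0.89, against 0.87 for all genes. Named after their values were seen, the complement genes C1qa, C1qb and C1qc were at -0.37, -0.038 and -0.048 in the authors' deposited table, the myeloid transcription factor gene Spi1 0.18 and the TREM2 adaptor gene Tyrobp 0.069, and none of these passed the test. The gene called higher was Mertk, a receptor for dying cells, for which the authors' deposited table gave 0.92 (adjusted p = 0.00241). Its normalized counts were 331 and 312 in KO, above the 178 and 162 of WT. Against the mean of these 24 genes within each library, a comparison chosen after the data were seen, Cd68 was 3.66 higher in KO than in WT, Gpnmb 5.01, Cd14 2.46 and Trem2 2.03. On the same within-library scale Lyz2 was at -0.077, Timd4 at -0.10, Csf1r at -0.16, Marco at -0.30, Adgre1 at -0.60 and Clec4f at -1.40.

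**Figure D3:**
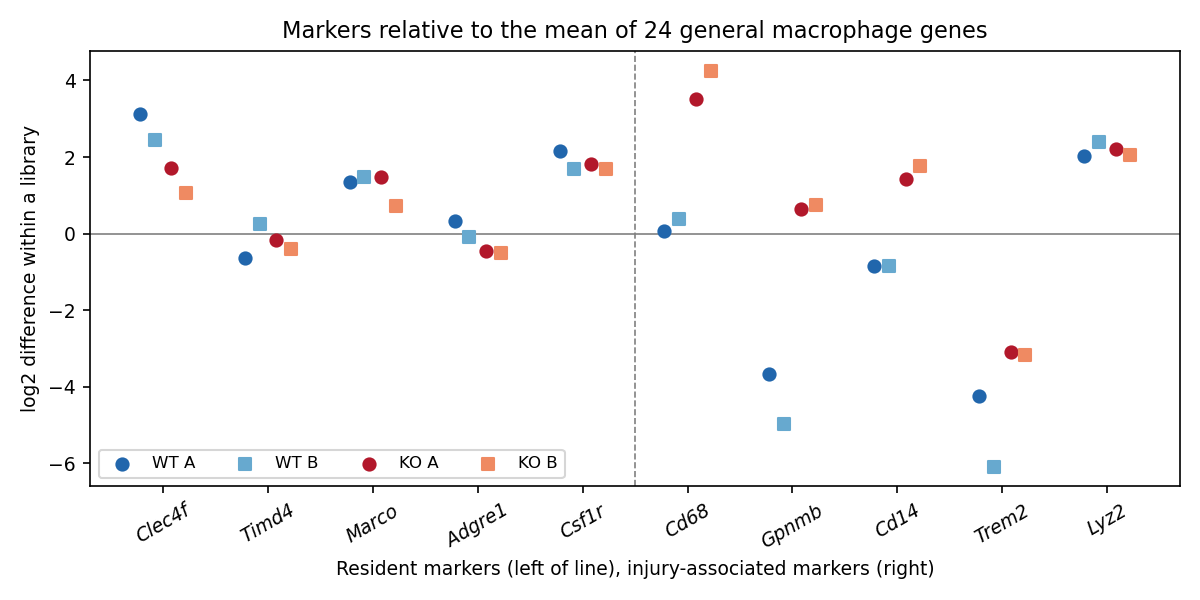
Log2 normalized count of each marker minus the mean of 24 general macrophage genes in the same library, with WT in blue and KO in red. Gpnmb lay between -4.98 and -3.65 in WT and between 0.64 and 0.74 in KO, and Clec4f fell from 3.12 and 2.44 in WT to 1.70 and 1.05 in KO.

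Among 18 further genes of Kupffer cells DESeq2 called 8 lower and 0 higher (11 and 0 at an unadjusted p under 0.05), and limma called 8 and 0. Of all tested genes DESeq2 called 22.2% lower and 20.4% higher, and limma 24% and 25.3%. The authors' deposited table gave the 18 Kupffer cell genes a median of -0.87. At total-count scaling 2 of these 18 were higher and 1 lower in limma, beside 58.7% and 7.56% of all genes. The median of the 18 was then -0.055 where that of all genes was 0.87. The smallest p-values belonged to C6, a complement component (-1.69), Nr1h3, which encodes the lipid-sensing receptor LXRα (-0.99), and Hpgd, an enzyme that inactivates prostaglandins (-1.25), in the authors' deposited table. All 3 are also expressed by hepatocytes or other liver cells. Named after their values were seen, the scavenger receptor gene Cd163 was at -0.95, the complement receptor gene Vsig4 at -1.03 and the ficolin gene Fcna at -0.84 in the authors' deposited table, at adjusted p = 0.00589, 0.0245 and 0.00499. The gene of the secreted protein CD5L did not pass the test (Cd5l, -0.36, adjusted p = 0.186). Slc40a1, Cd38 and Spic, also named after their values were seen, were above 0 in the authors' deposited table (0.30, 0.11 and 0.041). These genes did not pass the test either.

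Of 27 further genes of the lipid-associated programme 13 were called higher and 3 lower, beside 20.4% and 22.2% of all tested genes. The authors' deposited table gave the 27 a median of 0.88. Limma was fitted to the 25 of them with recovered counts and called 15 higher and 1 lower, beside 25.3% and 24% of all genes. With total-count scaling it called 21 of the 25 higher and 0 lower, at a median of 1.69. Of all genes limma called 58.7% higher and 7.56% lower at that scaling. Cd63 rose by 3.04, Cd9 by 2.87 and Cstb by 2.70 in the authors' deposited table. The first pair encodes tetraspanins and Cstb an inhibitor of cathepsins. Normalized counts of Cd63 were 906 and 685 in KO and 71.2 and 124 in WT, and those of Cd9 were 672 and 665 against 89.5 and 92.9. Other members named after their values were seen include the galectin gene Lgals3 (1.90) and the elastase gene Mmp12 (4.78, adjusted p = 0.00135, normalized 53.4 and 12.7 in KO, 1.08 and 1.35 in WT), while the cathepsin gene Ctsd (0.089) and the lipid droplet gene Plin2 (0.094) did not pass the test in the authors' deposited table. Most genes of this list are not restricted to macrophages, and Apoe and Ctsl, both abundant in hepatocytes, were called lower (-1.16 and -1.32 in the authors' deposited table). Counts of Apoe and Ctsl were not recovered, so limma did not cover them.

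Markers of other cells moved at the same time, and their part in the result was not tested. Of 10 bile duct markers 9 were called higher and 0 lower, and of 12 stellate cell and fibroblast markers 7 were higher and 0 lower. Beside these lists and those below, 20.4% of all tested genes were called higher and 22.2% lower in the authors' deposited table. Summed normalized counts of the bile duct list were 4938 and 3857 in KO against 845 and 1056 in WT, with Krt7 and Cftr at 0 in at least 1 library. Spp1 belongs to that list and to the lipid-associated one. It alone gave 3311 and 2460 of the bile duct sums in KO and 527 and 696 in WT. Sums of the stellate list were 10448 and 7532 in KO against 4894 and 3773 in WT. Of 17 tested monocyte genes 5 were called higher and 0 lower, with the smallest p-values for Thbs1 (4.49), Vcan (4.20) and S100a6 (1.82) in the authors' deposited table, and the first pair is made by fibroblasts and other cells too. Cx3cr1, the fractalkine receptor gene of monocytes and macrophages, named after its values were seen, was also called higher (2.51 in the authors' deposited table, adjusted p = 0.00573). Sums of the monocyte list, without Fn1, whose counts were not recovered, were 3744 and 3549 in KO and 2170 and 3322 in WT. Most of each sum was S100a10, with 2619 and 2483 in KO and 1791 and 2925 in WT. S100a10 did not pass the test (0.11 in the authors' deposited table, adjusted p = 0.736). The monocyte genes Ly6c2 and Ccr2 had mean counts of 7.02 and 26.5 and did not pass the test (adjusted p = 0.699 and 0.137). Among 10 tested neutrophil genes DESeq2 called 1, Retnlg, lower and 0 higher (limma 1 and 1), and among 13 tested genes of lymphocytes, natural killer and dendritic cells DESeq2 called 0, with 0 at an unadjusted p under 0.05 and 0 in limma at either scaling. Sums of the neutrophil list were 312 and 220 in KO and 175 and 454 in WT, with Camp, Ngp, Ltf, Mpo and Elane at 0 in at least 1 library. Of 12 endothelial markers Clec4g alone was called, as lower, and of 6 red cell genes Klf1. With total-count scaling limma called 10 of the 12 endothelial markers higher and 0 lower (median 0.95 against 0.87 for all genes), 12 of 16 monocyte and 12 of 12 stellate genes higher, and 2 of 10 neutrophil genes higher and 0 lower. Of all genes 58.7% were then called higher and 7.56% lower. Sums of the red cell list, without Hba-a1, whose counts were not recovered, were 1725 and 14022 in KO and 8813 and 17223 in WT. The gap between the KO libraries came from Hbb-bs, with 284 and 13232 in KO and 6723 and 15693 in WT. Alas2 (738 and 342 in KO, 1203 and 659 in WT) and Tfrc (665 and 419 in KO, 603 and 638 in WT) were higher in KO A than in KO B. Hepatocyte markers, which define the labelled tissue, were all 12 in the table, 10 of them lower and 2 higher in KO.

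Of 13 tested genes for the growth and recruitment of macrophages 6 were called higher and 0 lower (also 6 and 0 at an unadjusted p under 0.05), and the authors' deposited table gave a median of 0.91. Beside this list and those below, 20.4% of all tested genes were called higher and 22.2% lower. Csf1, the ligand of the receptor made by Csf1r, rose by 1.39 (adjusted p = 4.18e-05), Csf2ra, a subunit of the GM-CSF receptor, by 1.94 and the adhesion molecule gene Vcam1 by 1.47 in the authors' deposited table. Il34, the other ligand, was at 0.86 (adjusted p = 0.114), and the monocyte attractant gene Ccl2 rose by 2.09 from few reads (adjusted p = 0.0150). Both were named after their values were seen. The receptor that works with CD14 did not pass the test. Tlr4 was at -0.17 and its partner Ly96 at 0.63 (adjusted p = 0.870 and 0.431), while Lbp, which delivers lipopolysaccharide to CD14, fell by 1.25 and the adaptor gene Myd88 by 1.01 in the authors' deposited table. Of the 10 genes of that pathway 1 was called higher, the ubiquitin ligase gene Traf6 (0.76), and 2 lower. Of 10 genes of TREM2 signalling 1 was called higher, Adam10 (0.94), whose protease sheds TREM2 from the cell surface, and 0 lower. Among 18 scavenger and phagocytic receptors and their bridging proteins 8 were higher and 5 lower, with the smallest p-values among the higher ones for Mfge8 (3.13), Itgav (1.83) and Gas6 (1.36), and among 20 genes of lysosomes and their regulators 4 were higher and 3 lower in the authors' deposited table. In that last list the smallest p-values were those of Atp6v0d1 (-1.29), Lamp2 (-1.11) and Npc1 (0.79), while the authors' deposited table gave the list a median of 0.036. Limma called, with total-count scaling, 15 of 19 recovered lysosomal genes higher and 1 lower, with a median of 0.87. At that scaling it called 11 of 13 growth and recruitment genes, 5 of 10 of the lipopolysaccharide pathway, 9 of 10 of TREM2 signalling and 12 of 17 of the scavenger list higher, and 0 of each lower. Of all genes limma then called 58.7% higher and 7.56% lower.

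Genes whose levels over the 4 libraries lay closest to Gpnmb and Clec4f were looked for among 9018 genes averaging 100 or more, by Euclidean distance of centred log2 normalized counts. Closest to Gpnmb were Src (distance 0.60), Ddr1 (0.63) and Elovl7 (0.64), with normalized counts for Src of 606 and 537 in KO and 37.7 and 17.5 in WT. Closest to Clec4f were Mug2 (0.30), Il17rb (0.44) and Etnk2 (0.50), with 1128 and 727 in KO and 2887 and 2000 in WT for Mug2. Adgre1 was the marker nearest to Clec4f (0.94), and Cd68 the one nearest to Gpnmb (1.84). With 4 libraries such likeness is a description of few values.

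m6A peaks were listed once per genotype by the authors, with an enrichment of IP over input for each peak, so no peak has a replicate check. The markers held 13 of the 12290 peaks of the KO list and 5 of the 5586 peaks of the WT list. A peak was listed for 7 of 10 markers in KO and for 4 of 10 in WT, beside 62.2% and 32.4% of all genes averaging 100 or more, as 9 of the 10 markers did. Clec4f, Marco, Csf1r and Lyz2 had peaks in both lists, Cd68, Cd14 and Timd4 in that of KO only (32.5% of all such genes), and Gpnmb, Trem2 and Adgre1 in neither. In WT input Cd68 had 156 and 154 reads and Cd14 82 and 65, far fewer than in KO, and the part of these read numbers in the missing WT peaks was not tested.

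Clec4f had 2 peaks in each list. The KO peak at chr6:83652510-83652908, 3208 bases of genome from the gene start, had an enrichment of 29.1 (deposited score 1.38e-24, taken as a p-value). It overlapped both WT peaks of the gene, at chr6:83652560-83652708 with 25.7, which lay inside it, and at chr6:83652810-83652958 with 11.8, of which it covered 66.4%. The other KO peak of Clec4f, at chr6:83655968-83656066 and 50 bases from the start, had 6.07 and no partner in WT. Clec4f was thus listed with a peak at the same place in both genotypes, and its listed enrichment there was not lower in KO. The depth and scaling of the lists are unknown, so these values do not show whether its m6A level changed.

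Marco had the same peak in both lists, at chr1:120504689-120504737 and 287 bases from the start, with an enrichment of 8.63 in KO and 49.5 in WT. Another peak at chr1:120494763-120494811 was listed for KO only, with 7.79. Csf1r had 4 peaks in KO and 1 in WT. The KO peak with blocks between chr18:61105967-61109781 had 20.3 and covered the WT peak at chr18:61109733-61109781, which had 71.5. The other 3 KO peaks of Csf1r, at chr18:61130205-61130742 (16.9), chr18:61130892-61130940 (7.0) and chr18:61131041-61131089 (15.8), had their nearest edge 397 to 50 bases from the gene's end and no partner in WT.

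Lyz2 had 1 peak in each list, at chr10:117280731-117282272 in KO with 23.7 and at chr10:117282176-117282224 in WT with 23.8. The KO peak reached the first base of the gene, and the WT peak lay inside it. Timd4 had 1 KO peak, with blocks between chr11:46810849-46815508 and an enrichment of 80.8, the highest among the markers (score 1.65e-07). Cd68 had 2 KO peaks, a strong one at chr11:69665790-69666070 with 23.6 (score 3.67e-149) and a weak one at chr11:69665640-69665688 with 1.77 (score 0.000886). Cd14 had 1 KO peak at chr18:36725797-36725992 with 6.06.

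Over the 5 overlapping pairs of peaks the enrichment was lower in KO for 3 and higher for 2, beside 75.4% lower among all 4102 overlapping pairs. Both higher pairs hold the same KO peak of Clec4f, set against each of its WT peaks. KO over WT was 0.17 for Marco, 0.28 for Csf1r, 0.99 for Lyz2, and 1.13 and 2.47 for the WT peaks of Clec4f, against a median of 0.50 over all pairs. The depth of the IP libraries and the scaling of the enrichment are unknown from the sources used here, so a ratio of the lists is comparable among peaks but not as an absolute change. By their nearest edge 7 of 13 KO peaks and 2 of 5 WT peaks of the markers were within 500 bases of genome from the RefSeq start, beside 28.6% of KO and 28.3% of WT peaks of all genes. These near-start peaks belonged to 6 of the 7 markers with a peak, all but Cd14.

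**Figure D4:**
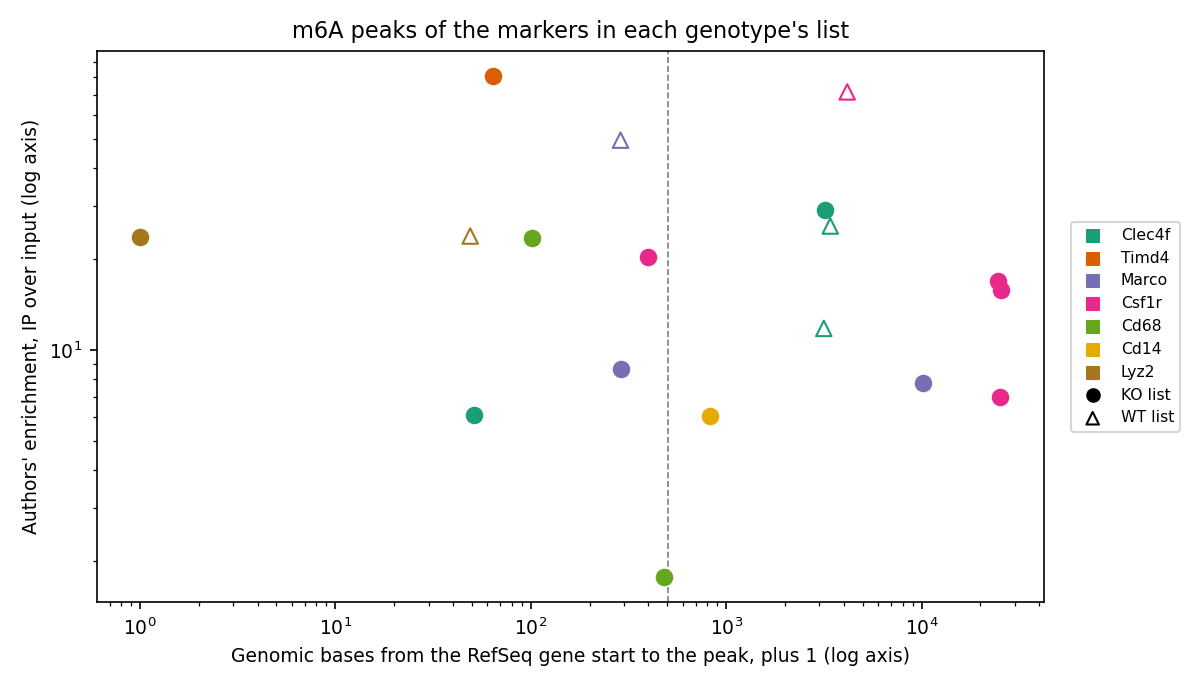
Enrichment of each m6A peak of the markers (log axis) against its distance from the RefSeq gene start in genomic bases plus 1 (log axis), filled circles for the KO list and open triangles for the WT list, coloured by gene. The dashed line marks 500 bases, with 7 of 13 KO peaks and 2 of 5 WT peaks to its left.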

How the data were processed

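Liver RNA was sequenced before and after m6A precipitation in 8 libraries. The submitters' processing notes name HISAT2 2.1.0 and DESeq2 1.18.1, with mm10 as the build; the sources used here name no read counter, annotation or peak caller. In its columns the authors' deposited table holds, per the file headers, a mean signal (counts divided by size factors, over the 4 input libraries), a log2 fold change with its standard error, a Wald score, a p-value and an adjusted p-value for 14257 of 16133 genes. The deposited peak lists hold 1 enrichment per peak, taken as a ratio of IP over input, and 1 p-value per peak, with no statement of adjustment; their starts count from 0 and were raised by 1.

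Whole reads per library were recovered because each mean is a sum of 4 counts times a step per library. Steps came from the lowest means, and all combinations were searched up to a mean of 10000, guided by the deposited fold change above 100. Counts were found for 15950 genes (98.87%); 181 genes lay above that mean. Refitting a negative binomial model to the markers' counts gave the deposited log2 changes to within 4.75e-06, and for all 10 markers the mean alone allowed 1 solution. Estimated totals set the other genes to their genotype's deposited mean. Recovered reads made up 64.03% and 65.32% of these totals in KO and 49.63% and 49.78% in WT. The rest of each total thus holds no spread between libraries of a genotype, and total-count scaling rests on it. A limma fit (3.58.1, R 4.3.3, trended variance) used log2 of normalized counts plus 1 for 14074 tested genes; it was the alternative, with total-count scaling, a pseudocount of 5, a mean count of at least 10, and each library left out. The scripts were tested on simulated data. Peaks were shared where blocks overlapped by at least 1 base. Intervals are deposited values with normal 95% limits. Promoters are those of RefSeq (GRCm38.p6), matched by symbol.

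The markers, the 16 other lists and the alternatives were chosen with earlier results of these data known. Beside the markers, genes were named by a rule: up to 3 called genes with the smallest p per list, otherwise the 2 with the highest mean, and the 3 nearest to Gpnmb and to Clec4f; others are said to be named after their values were seen. Comparisons of members within a library with the 24 general macrophage genes were also added then. A gene that this rule names is not reported here.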

Additional observations from a re-analysis of the deposited data

How the results depend on the processing

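No paired analysis was possible because the recovered libraries carry no replicate number. Of 10 markers 4 were called in the authors' table, also at an adjusted p under 0.01, in limma and with a mean count of at least 10, 5 with a pseudocount of 5 and 6 with total-count scaling (6 higher, 0 lower). Of all tested genes 42.5% were called in the authors' table. Limma called 3567 of 14074 genes higher and 3371 lower, and 3638 and 3411 with a pseudocount of 5. With a mean count of at least 10 it called 3364 and 3370 of 12664, and with total-count scaling 58.7% and 7.56% of all genes. With 1 library left out, the lone library being taken to vary like the other genotype, limma called 0 to 5 markers. The fits without KO A or KO B called 0 of 14074 genes (5064 and 5407 genes, and 5 and 3 markers, at an unadjusted p under 0.05), so their 0 says nothing of the markers alone; DESeq2 was not rerun. Cd68, Gpnmb, Cd14, Trem2 and Clec4f kept their sign in all 8 limma fits.

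Signs turned as follows. With total-count scaling the values were 0.69 for Timd4, 0.49 for Marco, 0.19 for Adgre1, 0.63 for Csf1r and 0.71 for Lyz2. Without KO B they were 0.16 for Timd4, 0.23 for Marco, 0.043 for Csf1r and 0.15 for Lyz2. Csf1r was at 0.049 without WT A, and without WT B Timd4 was at 0.31 and Lyz2 at 0.055. The cause was not tested.

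Among peaks in the upper part of each list by enrichment (its median or more) 7 KO and 3 WT peaks of the markers remained. The difference between injury-associated and resident markers was 2.85 with a pseudocount of 5 and 3.27 without Trem2, and all 5 pairs of peaks also shared at least 50% of the shorter peak. Depth limits Trem2 and the WT value of Gpnmb.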
